A study of Mus musculus with 6 samples.

Results

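The troponin genes encode the 3 kinds of subunit of the troponin complex, the calcium switch of striated muscle. They were taken as every row of the count files whose symbol is *Tnni1*, *Tnni2*, *Tnni3*, *Tnnt1*, *Tnnt2*, *Tnnt3*, *Tnnc1* or *Tnnc2*, which gave 8 of 54525 gene rows. RNA-seq was performed on C2C12, an established mouse muscle line, with 3 libraries from myoblasts (day 0, D0) and 3 from cultures differentiated into myotubes for 5 days (D5). All 6 libraries carried the WT genotype and no treatment, and the labels call the cell type myoblasts at both times. Growth medium held fetal bovine serum and differentiation medium held horse serum, so the time point and the medium changed together. C2C12 is a single line, and nothing states whether the libraries of a time point came from separate experiments, so p-values measure only the spread between these samples, which may be technical.

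Troponin sits on the thin filament of the sarcomere, bound to actin and tropomyosin. Troponin C binds calcium through its EF-hands, troponin I holds the filament in the off state until calcium arrives, and troponin T anchors the complex on tropomyosin. Each subunit comes in isoforms made from separate genes. *Tnni1* and *Tnnt1* are the slow skeletal forms, *Tnni2*, *Tnnt3* and *Tnnc2* the fast skeletal forms, *Tnni3* and *Tnnt2* the cardiac forms, and *Tnnc1* serves both slow skeletal muscle and heart. *Tnnt2* is also known from embryonic skeletal muscle, while *Tnni3* is a defining gene of the heart muscle cell.

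Depth on genes ran from 36555048 to 40895840 counts in the myoblast libraries and from 25449759 to 25811300 in the myotube libraries. No 2 replicates were alike within sampling noise (chi-square divided by its degrees of freedom between 2.28 and 3.71), and each library was counted as 1 sample. Myotube markers (*Myog*, *Mymk*, *Mymx*, *Ckm* and *Myh3*) rose in 5 of 5 cases, where 42.2% of all genes tested were called higher. They went from a summed 7.45 to 9.69 CPM (counts per 1000000 counts on genes, after TMM scaling) at D0 to between 6642 and 7010 CPM at D5. Myoblast and cycling markers (*Myod1*, *Myf5*, *Pax7*, *Mki67*, *Top2a* and *Ccnb1*) fell in 6 of 6 cases, where 40.8% of all genes tested were called lower. Their sum went from between 1739 and 1743 CPM to between 196 and 201 CPM. The labelled stages thus carried their own markers, and *Myod1* was still at 126 CPM in myotubes.

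All 8 troponin genes were higher in myotubes by edgeR's quasi-likelihood test, at a Benjamini-Hochberg adjusted p under 0.05 over 16290 tested genes. In the same test 42.2% of all genes were called higher at D5, so the direction of a single gene was common, and the size of the change is the more informative value. The median log2 fold change of the 8 genes was 7.56, against 0.0022 over all genes tested. For each of the 8 genes every D5 library lay above every D0 library in CPM, which held for 42.2% of all genes tested. In bulk RNA a smaller number of expressing cells and less RNA per expressing cell cannot be told apart. The 8 genes together took 0.0145% ± 0.00075 of all gene counts at D0 and 1.13% ± 0.066 at D5 (SD, n = 3 each).

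**Figure D1:**
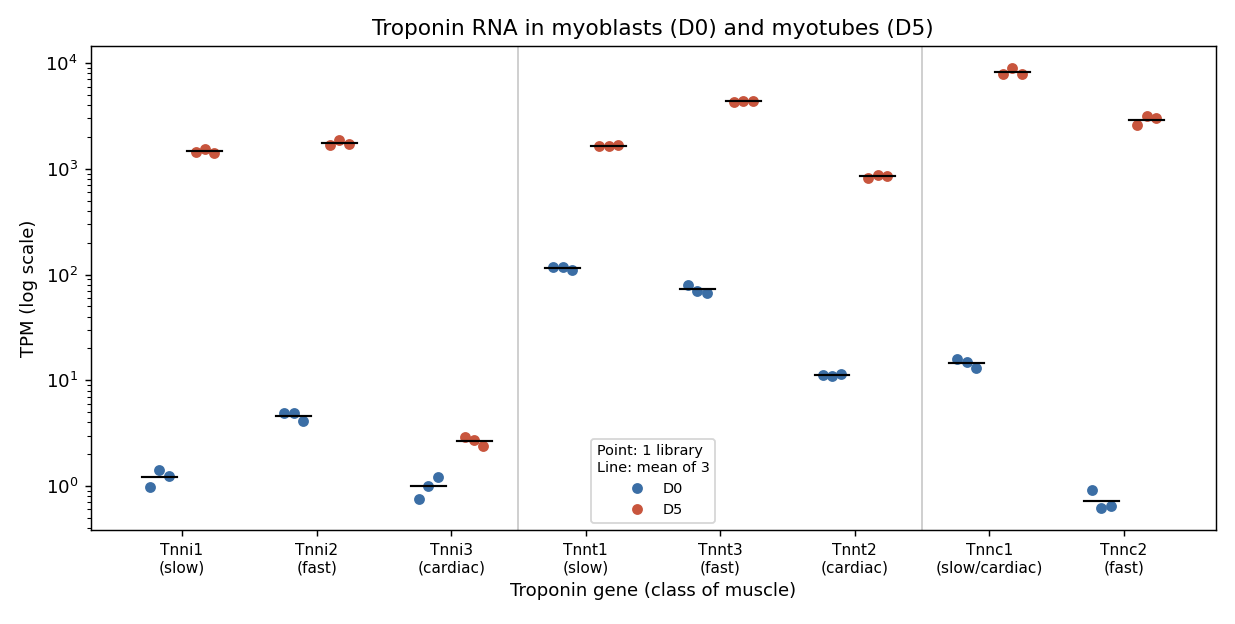
TPM of each troponin gene (transcripts per 1000000, from the union of exons, log scale) in each library, with 1 point per library and a line at the mean of 3. Every D5 point lies above every D0 point of its gene, and *Tnni3* alone stayed under 3 TPM in myotubes.

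The inhibitory subunit came from 2 skeletal genes in myotubes. The slow form *Tnni1* (chr1:135779434-135810989, plus strand, GRCm38) had 39, 62 and 51 counts at D0 and 41361, 45002 and 41173 at D5. It rose from 1.26 ± 0.22 to 1709 ± 101 CPM (SD, n = 3 each), a 1343-fold rise (log2 fold change 10.39 ± 0.070 SE, edgeR adjusted p = 8.7e-40). Myoblasts thus held few reads of this gene, while in myotubes it ranked 54th of all gene rows by TPM (transcripts per 1000000, counts scaled by gene length).

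The fast form *Tnni2* (chr7:142441808-142444410, plus strand) had 81, 88 and 71 counts at D0 and 19978, 22898 and 20761 at D5. It went from 2.01 ± 0.21 to 853 ± 69 CPM, a 425-fold rise (log2 fold change 8.73 ± 0.071 SE, edgeR adjusted p = 4.7e-38). Slow and fast troponin I therefore both rose by over 100-fold, with no overlap between the groups.

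The cardiac form *Tnni3* (chr7:4518305-4524229, minus strand) behaved differently in size. Its counts were 17, 25 and 29 at D0 and 48, 45 and 40 at D5. The level moved from 0.590 ± 0.13 to 1.78 ± 0.16 CPM, a 3.00-fold difference (log2 fold change 1.58 ± 0.22 SE, edgeR adjusted p = 1.8e-07). Scaled to the ERCC spike-ins (synthetic RNAs added to each sample), the log2 fold change was 1.00 and the call was lost, with an edgeR adjusted p of 0.15. The ERCC share of counts was itself uneven, from 0.720% to 2.09% in the D5 libraries. With this scaling the genes called went from 13510 to 5560 over all genes tested. *Tnni3* shared 4.17% of its exonic bases with *Dnaaf3*, an axonemal dynein assembly gene on the same strand, which fell by 0.87 on the log2 scale. In myotubes *Tnni3* ranked 12474 by TPM, far below the other 7 troponin genes.

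The tropomyosin-binding subunit was the one with the most RNA in myoblasts. The slow form *Tnnt1* (chr7:4504570-4516382, minus strand) already had 2888, 3179 and 2784 counts at D0 and reached 28396, 29347 and 29855 at D5. This was 73.9 ± 4.2 against 1174 ± 38 CPM, a 15.9-fold rise (log2 fold change 3.99 ± 0.041 SE, edgeR adjusted p = 2.2e-35). It had the highest TPM of the 8 genes before differentiation and, apart from *Tnni3*, the smallest fold change.

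The fast form *Tnnt3* (chr7:142498836-142516009, plus strand) had 1379, 1352 and 1221 counts at D0 and 53175, 55950 and 56278 at D5. It rose 67.1-fold, from 33.1 ± 3.3 to 2217 ± 86 CPM (log2 fold change 6.07 ± 0.053 SE, edgeR adjusted p = 2.7e-37). Per length it was the leading troponin T of the myotube, at 4339 ± 87 TPM (SD, n = 3).

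The cardiac form *Tnnt2* (chr1:135836354-135852260, plus strand) had 963, 1034 and 1021 counts at D0 and 49837, 54813 and 53841 at D5. It rose 84.3-fold, from 25.2 ± 0.57 to 2124 ± 125 CPM (log2 fold change 6.40 ± 0.049 SE, edgeR adjusted p = 1.1e-38). The 2 cardiac genes thus differed widely in these cells, with *Tnnt2* at 849 ± 33 TPM and *Tnni3* at 2.68 ± 0.27 TPM in myotubes.

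Among the calcium-binding subunits, *Tnnc1* (chr14:31208312-31211729, plus strand) had 182, 189 and 156 counts at D0 and 65652, 75676 and 66278 at D5. It rose 632-fold, from 4.41 ± 0.50 to 2783 ± 251 CPM (log2 fold change 9.30 ± 0.072 SE, edgeR adjusted p = 1.3e-38). At 8281 ± 621 TPM it was the eighth gene of the whole myotube table and, on the union of exons, the most abundant troponin.

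The fast form *Tnnc2* (chr2:164777161-164779967, minus strand) had 8, 6 and 6 counts at D0 and 16359, 20498 and 19380 at D5. From 0.168 ± 0.039 to 754 ± 93 CPM this was the largest fold change of the family, 4413-fold (log2 fold change 12.11 ± 0.12 SE, edgeR adjusted p = 5.6e-36), and the tenth largest of all genes tested. The D0 counts were few, and the fold is known less closely than those of the other troponin genes except *Tnni3* (0.22 SE). *Tnnc2* passed the expression filter only through D5, so it could only be called higher. With at least 10 counts required in every library *Tnnc2* could not be tested.

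The exons of *Tnnc2* overlap those of *Ube2c*, a ubiquitin-conjugating enzyme gene of dividing cells on the opposite strand. Of the exonic bases of *Tnnc2*, 74.0% are shared with *Ube2c*, and the strand setting of the counting is not stated. *Ube2c* moved the other way, with 3776, 4183 and 4009 counts at D0 and 128, 130 and 150 at D5 (log2 fold change -4.19 ± 0.0575 SE, edgeR adjusted p = 2.5e-32). Its part in the counts of *Tnnc2* was not tested. For the other 7 genes the overlap with exons of other genes was at most the 4.17% of *Tnni3*, and at most 0.0543% of the 50-base stretches of any troponin transcript occurred in another troponin gene.

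Markers of other cell types also moved between the times. Of 6 fibroblast markers, 5 rose (*Pdgfra*, *Dcn*, *Lum*, *Col1a1* and *Col3a1*), where 42.2% of all genes did. The markers summed to 556 to 580 CPM at D0 and to between 4105 and 4291 CPM at D5. *Lum* had 0 counts in every D0 library, so it passed the expression filter only through D5 and could only be called higher. *Thy1* was not tested, with 0, 0 and 1 counts at D0 and 0 counts in every D5 library. Of 10 cardiomyocyte markers 5 were tested, of which 2 rose and 2 fell, where 42.2% and 40.8% of all genes did, and the sum went from between 25.4 and 26.5 CPM to between 1147 and 1338 CPM. The rise came from *Myl4*, a light chain of atrial and embryonic muscle, at 1169 ± 103 CPM, and from *Myh6*, the alpha cardiac myosin heavy chain, at 26.7 ± 3.1 CPM. Of the others, *Myl7*, *Nppa* and *Pln* had at most 3 counts in each myotube library, *Ryr2* at most 4, and *Mybpc3* went from 0 counts in every D0 library to 6, 7 and 2 at D5. The factor *Gata4* was not called, at 16.9 ± 0.45 CPM at D0 and 16.3 ± 0.40 at D5, while *Nppb* fell by 3.09 and *Nkx2-5* fell by 0.89 on the log2 scale. Of 6 smooth muscle markers 0 were called higher by edgeR (0 at an unadjusted p under 0.05, 0 with DESeq2) and 3 were lower (*Cnn1*, *Tagln* and *Myocd*), where 42.2% and 40.8% of all genes were. Their sum was 848 to 893 CPM at D0 and 177 to 181 CPM at D5, and *Myh11* had at most 8 counts in any library. The part of these cell types in the troponin levels was not tested.

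Levels of different genes can be set side by side only per length. On the union of exons the order in myoblasts was *Tnnt1* (116 ± 5.2 TPM), *Tnnt3* (72.2 ± 6.1), *Tnnc1* (14.6 ± 1.4), *Tnnt2* (11.2 ± 0.23), *Tnni2* (4.63 ± 0.44), *Tnni1* (1.21 ± 0.22), *Tnni3* (0.990 ± 0.24) and *Tnnc2* (0.726 ± 0.16 TPM). The libraries of *Tnni1* and *Tnni3* overlapped in TPM, as did those of *Tnni3* and *Tnnc2*, so these neighbours in the order did not differ beyond their spread. In myotubes the order was *Tnnc1*, *Tnnt3*, *Tnnc2* (2918 ± 304 TPM), *Tnni2* (1765 ± 112), *Tnnt1* (1651 ± 26), *Tnni1* (1471 ± 68), *Tnnt2* and *Tnni3*. *Tnni2* and *Tnnt1* differed by about 1 SD of *Tnni2*, although their libraries did not overlap.

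The order depended on the length used, also at the top of the myotube list. A gene's exons as annotated add up to more than any single transcript, and *Tnnt2* is the extreme case, with 7752 bases in the union, 3330 in the longest transcript and a median of 1096 over its protein-coding transcripts. With the median protein-coding transcript as length, *Tnnt2* at D5 was at 2969 ± 140 TPM, *Tnni1* at 3495 ± 176 and *Tnnc2* at 1649 ± 184. With only exonic bases that no other gene shares, *Tnnc2* was at 10309 ± 1076 TPM and passed *Tnnc1*, at 7608 ± 578. This last length assumes that no read from the shared bases was counted, which is not known. *Tnnt1* led in myoblasts and *Tnni3* came last in myotubes under each of the 4 lengths.

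**Figure D2:**
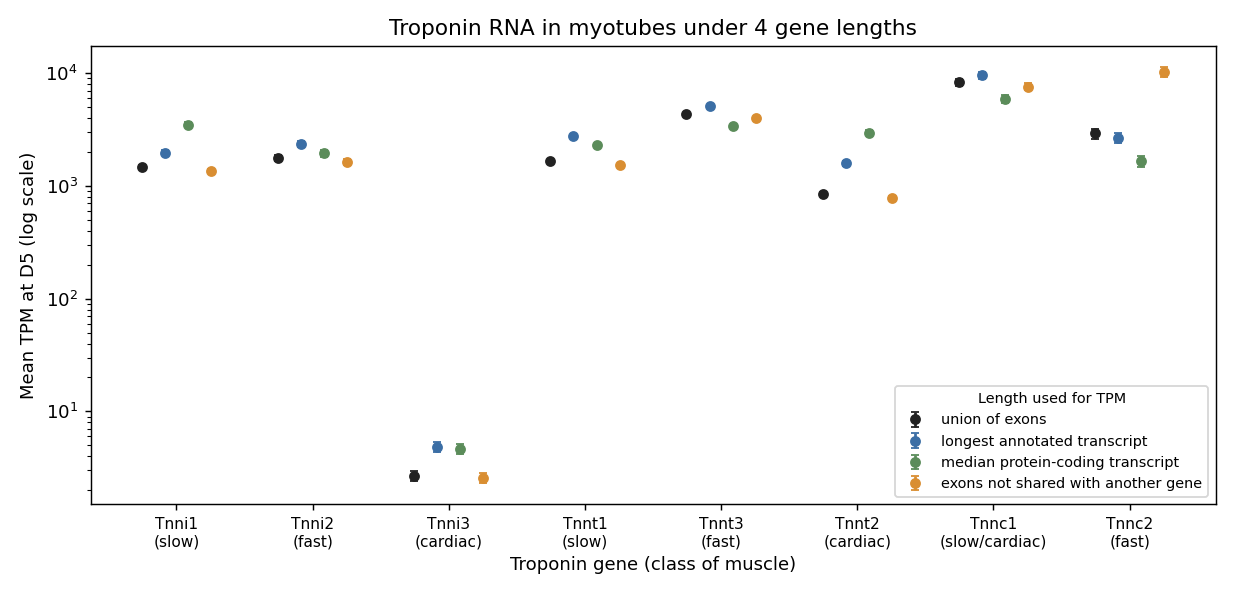
Mean TPM of each troponin gene in the 3 D5 libraries (log scale) under 4 choices of gene length, 1 symbol per choice. *Tnnt2* spans from 780 to 2969 TPM and *Tnnc2* from 1649 to 10309 TPM, whereas *Tnni3* stays between 2.57 and 4.84 TPM.

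Which isoform made up each subunit changed with differentiation. Of the troponin I RNA, *Tnni1* held 17.7% ± 2.5 at D0 and 45.4% ± 0.69 at D5 (share of summed TPM on the union of exons, SD, n = 3 each). *Tnni2* went from 67.8% ± 5.7 to 54.5% ± 0.69 and *Tnni3* from 14.5% ± 3.7 to 0.0829% ± 0.0093. In single libraries *Tnni1* held 14.8%, 19.5% and 18.7% at D0 and 46.2%, 44.9% and 45.2% at D5. On this length troponin I thus went from mostly fast, at very low levels, to a nearly even mix of slow and fast, with the cardiac gene nearly absent from it. With the median protein-coding transcript as length *Tnni2* held 52.9% at D0, with 47.5% in D0 replicate 3, and at D5 the slow gene led, with 64.1% for *Tnni1* and 35.8% for *Tnni2*.

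Troponin T went from mostly slow to mostly fast. *Tnnt1* held 56.8%, 59.4% and 58.3% in the D0 libraries and 24.4%, 23.9% and 24.2% in the D5 libraries. *Tnnt3* went from 36.2% ± 1.4 to 63.5% ± 0.039 and *Tnnt2* from 5.65% ± 0.37 to 12.4% ± 0.27 (SD, n = 3 each). With the median protein-coding transcript as length the D5 shares were 26.5% for *Tnnt1*, 34.4% for *Tnnt2* and 39.1% for *Tnnt3*. The fall in the share of *Tnnt1* was present under each of the 4 lengths, from between 58.2% and 64.6% to between 24.1% and 29.2%, although its own RNA rose.

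On the union of exons troponin C was nearly all *Tnnc1* in myoblasts and gained the fast form in myotubes. On that length *Tnnc2* held 5.41%, 3.97% and 4.77% of troponin C RNA at D0 and 24.5%, 26.1% and 27.6% at D5. With unshared exons only it held 16.0% ± 2.2 at D0, and its D0 shares rest on 8, 6 and 6 counts. Its mean share was 26.0% ± 1.5 at D5 on the union of exons, 21.8% with the longest transcript and 57.5% with unshared exons only, so which of the 2 genes led at D5 depended on how the bases shared with *Ube2c* are treated.

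**Figure D3:**
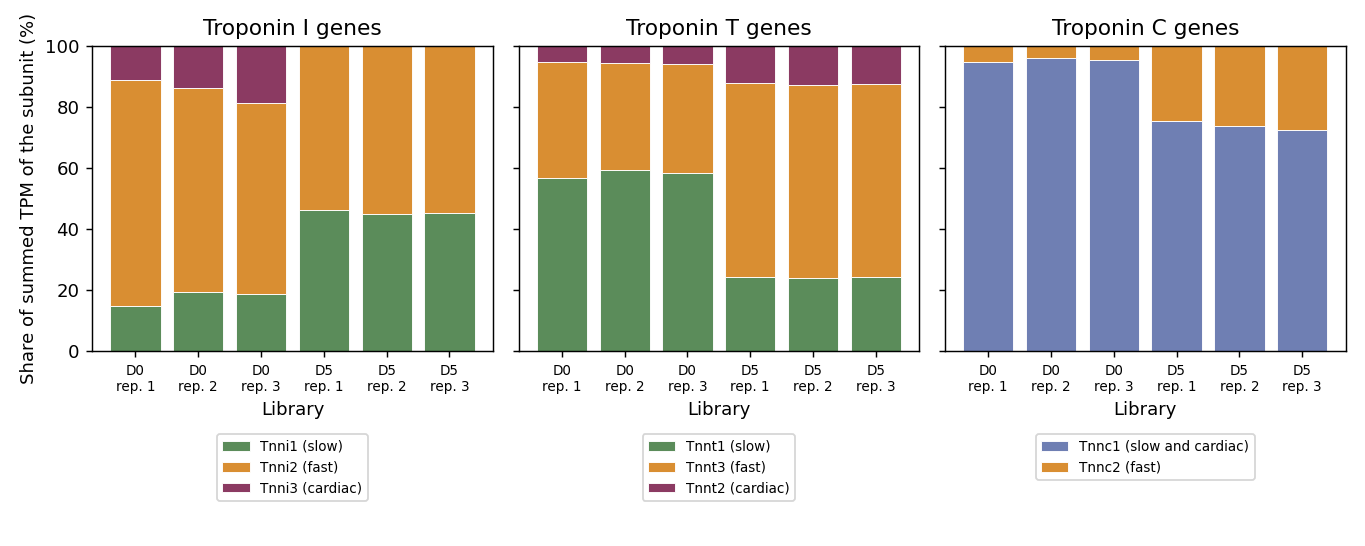
Share of each subunit's summed TPM (percent, union of exons) from each of its genes, in 1 stacked bar per library and 1 panel per subunit. The bars of a time point resemble each other closely, and between the times *Tnnt3* replaces *Tnnt1* as the larger part of troponin T, while *Tnnc2* grows from 4.71% to 26.0% of troponin C.

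The change in balance between 2 genes of a subunit does not depend on length apart from a small pseudocount, since length cancels in a difference of log2 ratios. Relative to *Tnni1*, *Tnni2* fell by 1.60 on the log2 scale (a 3.03-fold fall of the ratio) and *Tnni3* fell by 8.77. Relative to *Tnnt1*, *Tnnt3* rose by 2.08 and *Tnnt2* by 2.39. Relative to *Tnnc1*, *Tnnc2* rose by 2.66 (a 6.32-fold rise of the ratio). So the fast gene gained on the slow one in troponin T and C and lost to it in troponin I. In each of these 5 pairs the 3 ratios at D5 lay wholly to one side of the 3 at D0, and the exact two-sided permutation test gave p = 0.1, also after adjustment over the 5 pairs, which is the smallest p that 3 against 3 libraries allow and cannot pass 0.05. The share of other gene pairs that separate in this way was not computed. With 42.2% of all genes tested called higher and 40.8% lower, separation alone carries little weight.

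Summed over genes, troponin T was the dominant subunit RNA in myoblasts, at 199 ± 10 TPM, against 15.4 ± 1.6 for troponin C and 6.83 ± 0.38 for troponin I (SD, n = 3). In myotubes troponin C stood at 11199 ± 857 TPM, troponin T at 6839 ± 141 and troponin I at 3239 ± 176. The ratio of troponin T to troponin C was 12.5, 12.9 and 13.8 at D0 and 0.633, 0.567 and 0.638 at D5. The ratio fell under each of the 4 lengths, from between 11.5 and 23.7 to between 0.352 and 1.15. Whether C or T led at D5 therefore depended on the length used. The ratio of troponin I to troponin T rose from 0.0343 ± 0.0023 to 0.474 ± 0.024. The ratio of troponin I to troponin C fell from 0.448 ± 0.045 to 0.290 ± 0.0075, and it fell under each of the 4 lengths.

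**Figure D4:**
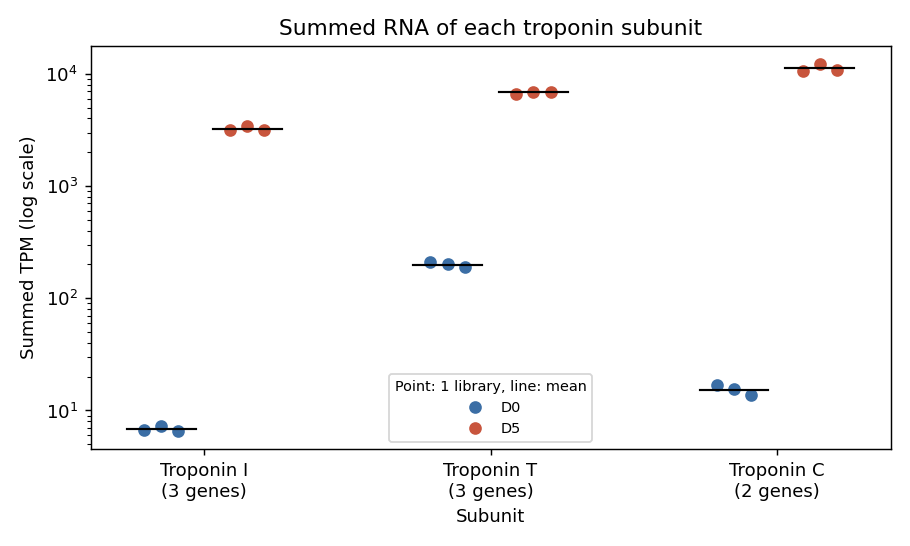
Summed TPM of the genes of each troponin subunit (log scale, union of exons), with 1 point per library and a line at the mean of 3. Troponin T lies above the other subunits at D0, at 199 TPM, and between troponin I and troponin C at D5, at 6839 TPM.

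The troponin I and T genes lie in pairs on the mouse genome. *Tnni1* and *Tnnt2* stand 25364 bases apart on chromosome 1, *Tnni3* and *Tnnt1* 1922 bases apart on chromosome 7, and *Tnni2* and *Tnnt3* 54425 bases apart on the same chromosome. Partners in a pair differed in their response, since the log2 fold change was 1.58 for *Tnni3* and 3.99 for its neighbour *Tnnt1*, 10.39 for *Tnni1* and 6.40 for *Tnnt2*, and 8.73 for *Tnni2* and 6.07 for *Tnnt3*. The pair *Tnni2* and *Tnnt3* joins 2 fast genes, while each of the other pairs joins a cardiac and a slow gene.

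The overlapping genes *Ube2c* and *Dnaaf3*, described above, both fell. The nearest protein-coding genes on either side of the 8 loci that do not overlap them, other than troponin genes, numbered 12, of which 10 could be tested. Of these, 8 were called higher at D5, where 42.2% of all genes were, and 2 were called lower, where 40.8% of all genes were. With ERCC scaling 2 were higher, *Syt8* and *Lad1*, and 0 lower in edgeR's test (2 at an unadjusted p under 0.05, 2 with DESeq2, which used its own scaling). Their median log2 fold change was 0.71, far below the 7.56 of the troponin genes. *Syt8*, a synaptotagmin gene 1411 bases from *Tnni2*, had at most 3 counts in each D0 library and 38, 59 and 62 at D5. *Lad1*, which lies between *Tnni1* and *Tnnt2*, had 1 count in each D0 library and 15, 14 and 9 at D5. *Syt8* and *Lad1* passed the expression filter only through D5, so they could only be called higher. The other 6 rose by between 0.18 and 0.93 on the log2 scale. Of these, *Sema3g* (0.75) lost its call without D0 replicate 2 (0.47) or D5 replicate 2 (0.70) and with DESeq2. *Dnttip1* (0.18) and *Mrpl23* (0.20) lost theirs with total counts as the scaling and changed sign with ERCC scaling. *Lsp1*, which lies between *Tnni2* and *Tnnt3*, fell by 0.55 and *Ppp1r12c*, next to *Tnnt1*, fell by 0.71.

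The sequences just before the starts of *Tnni1*, *Tnnt2*, *Tnnc1* and *Tnnc2* are shown because these genes cover all 3 subunits and changed by over 50-fold. They come from RefSeq's promoter windows on GRCm38.p6, which matched 6 of the 8 genes with 8 windows, and *Tnni2* and *Tnnt3* had none. Each is the 250 bases before a RefSeq start, less 19 bases for *Tnni1* and 7 bases for *Tnnc2* that are annotated as untranslated exon. The windows lie at chr1:135799171-135799401 (*Tnni1*, plus strand), chr1:135836084-135836333 (*Tnnt2*, plus strand), chr14:31208062-31208311 (*Tnnc1*, plus strand) and chr2:164779742-164779984 (*Tnnc2*, minus strand). For *Tnni1* and *Tnnc2* this start lies inside the longer gene that GENCODE annotates, and most of the bases shown for them lie within that gene. Capitals mark the E-box CANNTG, the motif of myogenic basic helix-loop-helix factors such as MyoD and myogenin, and the MCAT motif CATTCC of the TEAD factors, which reads GGAATG on the other strand.
Tnni1: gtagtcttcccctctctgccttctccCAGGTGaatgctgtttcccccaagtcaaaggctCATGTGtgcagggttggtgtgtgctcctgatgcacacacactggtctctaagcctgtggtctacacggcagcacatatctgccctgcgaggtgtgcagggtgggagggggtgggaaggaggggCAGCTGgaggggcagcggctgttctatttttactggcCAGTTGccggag
Tnnt2: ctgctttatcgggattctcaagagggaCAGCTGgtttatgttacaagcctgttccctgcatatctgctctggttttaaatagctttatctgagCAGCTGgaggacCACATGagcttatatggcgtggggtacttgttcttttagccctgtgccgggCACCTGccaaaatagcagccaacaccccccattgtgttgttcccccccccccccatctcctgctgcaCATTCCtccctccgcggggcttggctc
Tnnc1: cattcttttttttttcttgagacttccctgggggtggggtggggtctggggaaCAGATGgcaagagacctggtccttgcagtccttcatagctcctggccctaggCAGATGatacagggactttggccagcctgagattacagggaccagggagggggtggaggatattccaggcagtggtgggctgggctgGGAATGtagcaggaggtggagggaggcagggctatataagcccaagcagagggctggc
Tnnc2: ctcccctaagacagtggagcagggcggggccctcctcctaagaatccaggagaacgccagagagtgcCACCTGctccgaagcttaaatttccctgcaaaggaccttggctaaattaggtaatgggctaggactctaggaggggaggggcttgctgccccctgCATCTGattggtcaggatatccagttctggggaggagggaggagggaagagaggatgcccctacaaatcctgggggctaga

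An E-box was found in 8 of the 8 windows of the 6 troponin genes, searched on both strands. It was found in 66.2% of 32851 RefSeq promoter windows of the same length. The first windows of *Tnni1* and *Tnnt2* each held 4 E-boxes, and at least 3 were present in 12.2% of all windows. The second windows of *Tnni1* and *Tnnt2* held 2 and 1 in turn. The 2 windows of *Tnni1* overlap, so its 2 E-boxes in the second are also in the first. *Tnnc1* and *Tnnc2* held 2 each, and *Tnnt1* and *Tnni3* 1 each. The MCAT motif was found before *Tnnt2*, 27 bases from its start, and before *Tnnc1*, 58 bases from its start, and in 12.6% of all windows. The letters TATAAA were found before *Tnnt1* alone of the 6 genes, 30 bases from its start, and in 12.4% of all windows. The MEF2 motif matched none of the 8 windows and 2.92% of all windows, which says only that these letters are absent there. *Tnni3*, which changed 3.00-fold, and *Tnnt1*, which changed 15.9-fold, held 1 E-box each, as did the second window of *Tnnt2*, which changed 84.3-fold. *Tnnc2*, which changed 4413-fold, held 2. Any link between E-boxes and the size of the change was not tested, over too few genes.

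The partners of troponin on the thin filament changed less evenly than the troponins. Of 14 thin filament partner genes, 11 rose and 2 fell, where 42.2% and 40.8% of all genes did, with a median log2 fold change of 1.46. With ERCC scaling 7 were higher, since *Tpm1*, *Nebl*, *Tmod3* and *Tmod4* lost their calls. Skeletal and cardiac actin *Acta1* and *Actc1* rose by 7.32 and 4.22, and the giant filament ruler *Neb* by 8.92. The pointed-end proteins *Lmod2* and *Lmod3* rose by 9.43 and 5.81. *Lmod2*, with 16, 6 and 10 counts at D0, passed the expression filter only through D5. Smooth muscle actin *Acta2* fell from 2858 ± 57 to 1012 ± 66 CPM (SD, n = 3 each), and the cytoskeletal tropomyosin *Tpm4* fell by 2.35 on the log2 scale.

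The tropomyosin genes *Tpm1*, *Tpm2* and *Tpm3* were already abundant in myoblasts, as totals over all transcripts of each gene. *Tpm1* had 1050 ± 14 CPM at D0 and 1595 ± 43 at D5, and *Tpm2* had 681 ± 20 and 3062 ± 46 (SD, n = 3 each). *Tpm3* had 431 ± 16 and 450 ± 11 CPM and was not called (log2 fold change 0.061 ± 0.033 SE, edgeR adjusted p = 0.095). The call of *Tmod4*, a tropomodulin, at 0.59 ± 0.22 SE, was lost with DESeq2 and without D5 replicate 2, where it was 0.38. Gene totals of tropomyosin, on which troponin T is anchored, rose by at most 4.49-fold for any of its 4 genes. The totals of the troponin T genes rose by 15.9-fold to 84.3-fold. Counts per gene do not separate the transcripts of a gene, so the change of muscle tropomyosin transcripts alone is not known.

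Genes of both fibre types rose with the troponins. All 11 fast fibre genes listed were higher at D5, where 42.2% of all genes tested were. Their median log2 fold change was 9.13 (9.05 with *Mybpc2*, which was not detected at D0, set to its lower bound). They ranged from *Myoz1* at 2.15 to *Myh4*, the fast 2B myosin heavy chain, at 14.02, with 4, 1 and 1 counts at D0 and 22743, 22118 and 22267 at D5. Of 10 slow fibre genes 9 were tested and all 9 were higher, against the same 42.2%, with a median of 9.34 (8.99 with *Myl2* and *Actn2*, not detected at D0, at their lower bounds). The fast *Myh4*, *Mybpc2*, *Casq1* and *Pvalb* and the slow *Myh7*, *Myh7b*, *Myl2*, *Actn2* and *Myoz2* passed the expression filter only through D5. These genes could therefore only be called higher. With at least 10 counts required in every library, 7 fast and 4 slow genes were higher. *Myh7*, the slow and beta cardiac myosin heavy chain, had 5, 4 and 7 counts at D0 and 5920, 7480 and 6462 at D5. The ventricular and slow light chain *Myl3* was not tested, with at most 5 counts in any library. The fast list summed to between 14444 and 15123 CPM in myotubes and the slow list to between 3234 and 3517 CPM, sums that also carry gene length.

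On the union of exons the fast heavy chains *Myh1* (1813 TPM) and *Myh4* (464 TPM) stood above the slow *Myh7* (95.7 TPM) in myotubes, and the fast *Myh2* (38.9 TPM) stood below it. The slow *Tnni1*, at 1471 TPM, was close to the fast *Tnni2*, at 1765 TPM, and the slow *Tnnt1*, at 1651 TPM, lay below the fast *Tnnt3*, at 4339 TPM, by less than 3-fold.

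Other small EF-hand proteins, the family of troponin C, moved in both directions. The calmodulin genes *Calm2* and *Calm3* fell by 1.05 and 0.20 on the log2 scale, and *Calm3* lost its call with ERCC scaling (edgeR adjusted p = 0.25). Parvalbumin (*Pvalb*), a calcium buffer of fast fibres listed with the fast genes, rose by 9.05 (edgeR adjusted p = 1.7e-30), with 2, 5 and 1 counts at D0 and 978, 873 and 947 at D5. *Calml4*, a calmodulin-like gene, rose by 4.71 but reached only 7.10 ± 0.17 CPM, and *Calml3* had at most 1 count in any library.

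**Figure D5:**
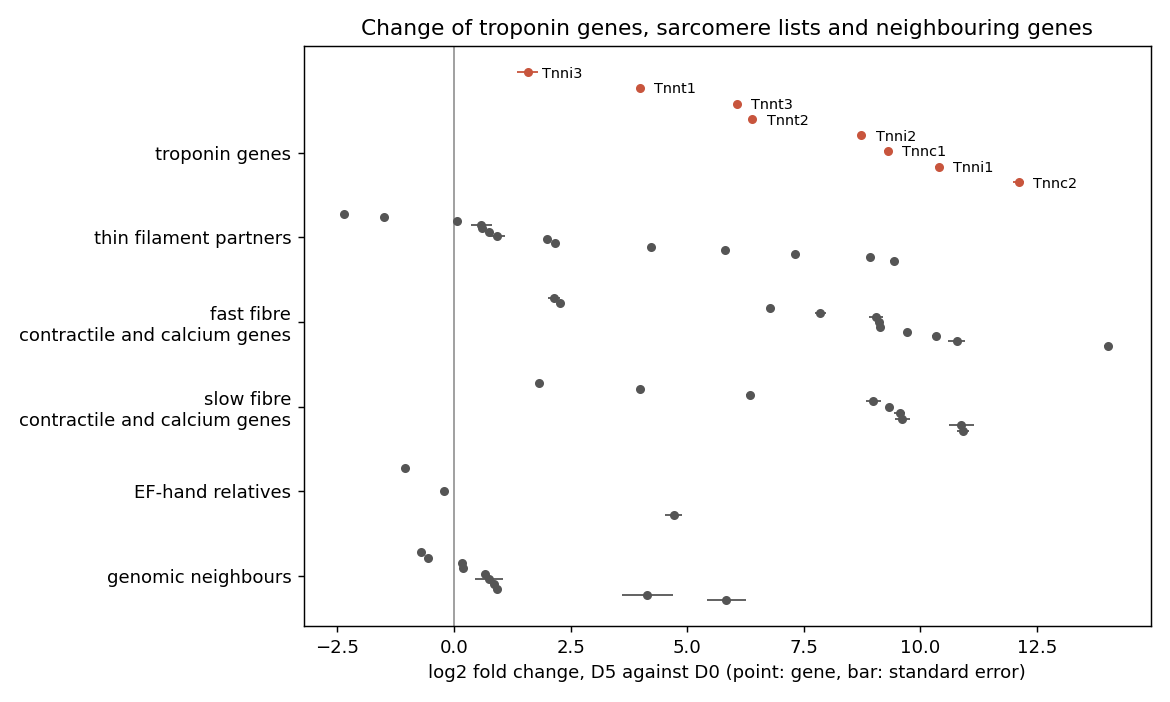
Log2 fold change (D5 against D0) with its standard error for each troponin gene, named, and for the tested genes of the thin filament, fast fibre, slow fibre, EF-hand and neighbour lists, 1 point per gene. The 8 troponin genes lie between 1.58 and 12.11, all to the right of 0, whereas the thin filament, EF-hand and neighbour lists have points on both sides.

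For each troponin gene the other tested gene with the nearest pattern was taken as the one with the smallest root mean square difference of log2(TPM + 0.1) over the 6 libraries, among 16275 genes. This was *Casq2*, the slow and cardiac calsequestrin, for *Tnni1* (0.55), *Mybph*, a myosin-binding protein, for *Tnni2* (0.17) and the unnamed locus *G930009F23Rik* for *Tnni3* (0.16). It was the cell cycle inhibitor *Cdkn1a* for *Tnnt1* (0.13), the matrix proteoglycan *Bgn* for *Tnnt2* (0.27) and the fast light chain *Myl1* for *Tnnt3* (0.48). For *Tnnc1* it was *Mylpf*, the fast regulatory light chain (0.36), and for *Tnnc2* embryonic myosin heavy chain *Myh3* (0.38). Of the 8 nearest genes, *Cdkn1a* was, like *Tnnt1*, well expressed in myoblasts, at 105 ± 1.7 TPM, and *G930009F23Rik* was, like *Tnni3*, low in both groups. Library depth and the 2 groups are shared by all these genes, so the likeness is a description of level and size of change.

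The D5 libraries differed slightly and in the same order for most members. D5 replicate 2 was the highest of its group for 6 of the 8 genes and D5 replicate 1 the lowest for 7. The summed troponin CPM was 10941, 12345 and 11560 in D5 replicates 1, 2 and 3. Summed myotube markers were at 6642, 7010 and 6663 CPM and summed fibroblast markers at 4291, 4105 and 4215 CPM in the same libraries. D5 replicate 2 was thus the highest for troponins and myotube markers and the lowest for fibroblast markers. These differences are small beside the change from D0, and their part in it was not tested.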

How the data were processed

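RNA-seq was performed on 3 D0 and 3 D5 libraries of C2C12. The authors deposited raw featureCounts counts per gene on GRCm38. The methods and the labels name different aligners, so the aligner is not settled, and the annotation release and the strand setting are not given in the sources used here. The 92 ERCC spike-in rows and an unnamed row, equal to the total of all others, entered neither library sizes nor tests. The ERCC rows held 0.726% to 0.859% of counts in the D0 libraries and 0.720% to 2.09% in the D5 libraries.

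From the counts, edgeR 4.0.16 (R 4.3.3) gave TMM factors, CPM and quasi-likelihood p-values after filterByExpr, which kept 16290 genes, with Benjamini-Hochberg adjustment and a threshold of 0.05. The standard error of a log2 fold change is its size over the square root of F. TPM used exonic lengths of GENCODE vM21, whose gene identifiers matched 99.9% of rows, other lengths being alternatives. Ratios used a pseudocount of 0.1 TPM. The code was tested on simulated data. A gene with 3 counts or fewer was treated as not detected, which covers counting error only.

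The genes named are the troponins, the listed genes, the neighbours and the nearest patterns. The members and lists were chosen with earlier results of these data known, and 1 listed gene is not reported here. Alternatives were DESeq2 1.42.0, upper-quartile, total-count and ERCC scaling, no filter, at least 10 counts, each library left out, the replicate block and 3 other lengths, of which 2 were chosen after seeing the data.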

Additional observations from a re-analysis of the deposited data

How the results depend on the processing

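The rise of 7 troponin genes was called under every alternative in which it could be tested, with log2 fold changes from 9.86 to 10.51 for *Tnni1*, 8.21 to 8.78 for *Tnni2*, 3.43 to 4.02 for *Tnnt1*, 5.84 to 6.45 for *Tnnt2*, 5.51 to 6.13 for *Tnnt3*, 8.79 to 9.36 for *Tnnc1* and 11.58 to 12.28 for *Tnnc2*. *Tnni3* ranged from 1.00 to 1.73 and lost its call with ERCC scaling alone. ERCC scaling moved the median of all genes to -0.58 and total counts to -0.082. With ERCC scaling 1813 genes were higher and 3747 lower, so that 32.6% of calls were higher against 50.8%. The ERCC share differed between replicates, from 0.720% to 2.09% in the D5 libraries, and 5560 genes were called against 13510. With it 7 thin filament genes and 2 neighbours were higher and 1 EF-hand gene lower. With it 0 neighbours were lower in edgeR's test (2 at an unadjusted p under 0.05, 2 with DESeq2, which used its own scaling). *Tpm1*, *Nebl*, *Tmod3*, *Tmod4*, *Calm3*, *Sema3g*, *Phlda3*, *Pkp1*, *Snx21*, *Lsp1* and *Ppp1r12c* lost their calls with ERCC scaling. With at least 10 counts in every library 7 fast, 4 slow and 0 EF-hand genes were higher in edgeR's test (0 at an unadjusted p under 0.05, 1 with DESeq2 on all genes), as were 1 cardiomyocyte marker, with 1 lower, because fewer genes were tested. Signs turned for *Tpm3* (-0.024 with total counts, -0.50 with ERCC), *Smtn* (-0.030 and -0.51 in turn), *Dnttip1* (-0.39 with ERCC) and *Mrpl23* (-0.40 with ERCC).

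The D5 shares moved with the length. With the longest transcript they were 0.112% for *Tnni3*, 29.2% for *Tnnt1*, 16.8% for *Tnnt2*, 54.1% for *Tnnt3*, 78.2% for *Tnnc1* and 21.8% for *Tnnc2*. With the median protein-coding transcript they were 64.1% for *Tnni1*, 35.8% for *Tnni2*, 26.5% for *Tnnt1*, 34.4% for *Tnnt2*, 39.1% for *Tnnt3*, 78.2% for *Tnnc1* and 21.8% for *Tnnc2*, and with unshared exons 42.5% for *Tnnc1* and 57.5% for *Tnnc2*. The D5 ratio of troponin I to C was 0.355, 0.723 and 0.166 and that of T to C was 0.773, 1.15 and 0.352 with these 3 lengths in turn.

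Libraries with the same replicate number had correlations of their deviations of 0.033, 0.064 and 0.028, and each correlated best with its own. The other correlations ran from -0.044 to 0.010. Values this small, over 3 libraries per group, do not settle whether libraries of the same number were paired. With the replicate number as a block 13558 genes were called against 13510, and 6894 were higher and 6664 lower, with 8 troponin genes higher and 0 lower, and the block changed no call on a named gene.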
